A study of Mus musculus with 14 samples.

Results

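The plateau of days 5 to 10 is the middle of a time course of functional overload in the plantaris muscle of old mice. It comprises the 6 arrays labelled day 5, day 7 or day 10, set against the 2 arrays labelled day 0, out of 14 arrays in the series. The changes described are those that all 6 arrays had in common. All animals were male C57BL/6J mice of 25 months. Their plantaris, a fast ankle extensor, was overloaded by surgical removal of the muscles that share its work (synergist ablation), and each day has 1 pool of left and 1 pool of right muscles from 6 animals. Day 0 stands for unloaded muscle. No array of sham-operated animals was analysed here, so surgery and overload cannot be told apart, and since every day has its own pools, day and animals cannot be told apart either. The left and right pools are not stated to come from different animals, so p-values measure the spread between pools, which may share animals.

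Overload makes a muscle fibre enlarge by raising its protein synthesis and by taking in nuclei from satellite cells, the resident stem cells, which divide, switch on myogenin and fuse. Around the fibres, fibroblasts lay down collagen and macrophages clear debris and release growth factors. Fibres that grow or regenerate transiently use embryonic and neonatal versions of contractile and receptor proteins, whereas resting fast fibres hold a specialised set of contractile, glycolytic and ion channel proteins.

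Signals are log2 values, differences are log2 differences between group means with their standard error (SE), and adjusted p-values come from limma fitted on all 14 arrays and corrected with the Benjamini-Hochberg method over 19938 genes. A gene is called when its adjusted p lies under 0.05, and a change is called shared when, in addition, all 6 plateau arrays lie beyond both day 0 arrays. The muscle label held: Acta1, Ckm, Myh4 and Pvalb, the skeletal actin, muscle creatine kinase, the fastest myosin and parvalbumin of fast fibres, read 14.34, 14.20, 13.83 and 14.15 on the left day 0 array, where the highest signal of any probe set was 14.7. Pools from the 2 sides of the same day had correlations of 0.994 to 0.997 across genes. The 2 day 0 arrays nevertheless differed in cells other than fibres: mitosis genes were lower on the right than on the left by a median of -0.51, and macrophage markers by -0.37. On day 5 the muscle fibre markers were lower on the right by a median of -0.38, and on day 10 by -0.10.

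Of 19938 genes, 5625 were higher in the plateau than on day 0 (28.2%) and 8127 were lower (40.8%). The change was shared by all 6 arrays for 5256 rises (26.4%) and 7480 falls (37.5%). Taken singly, day 5 had 26.4% of genes higher and 33.7% lower, day 7 26.6% and 36.3%, and day 10 25.9% and 34.3%, and 22.4% were called higher and 26.9% lower on each of the 3. Large shared changes leaned the other way, with 1682 rises of at least 2-fold (8.44%) against 850 falls (4.26%). All 6 arrays individually passed 2-fold for 1211 rises (6.07%) and 558 falls (2.8%), and the median size was 0.69 for shared rises and -0.41 for shared falls. The median gene lay -0.13 from day 0, so the share of rises among called genes depends on the array level. That share was 40.9% as deposited, 42.9% after quantile normalization, 28.9% with equal array medians and 56.4% with the median difference set to 0. Changes below are best read against the median of -0.13, and each count of a gene list against 26.4% shared rises and 37.5% shared falls over all genes. In whole muscle, fewer cells of a type and less RNA per cell cannot be told apart.

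The largest shared rises were led by Mest, C1qtnf3, Timp1 and Cthrc1. Mest, an imprinted gene expressed from the paternal copy and active in the embryo, read 8.30 and 8.06 on day 0 and lay between 12.82 and 13.60 in the plateau, with a median of 13.35. It rose 33.7-fold (5.07 ± 0.10 SE, adjusted p = 1.2e-11), and every plateau array was more than 4 log2 units above both day 0 arrays. C1qtnf3, a secreted relative of complement C1q, rose 32.3-fold, from 7.61 and 7.58 to a plateau median of 12.82. Timp1, an inhibitor of matrix metalloproteases, rose 27.8-fold from 8.02 and 7.49 to a median of 12.57. Cthrc1, a secreted collagen repeat protein of wounded tissue, rose 25.4-fold, and its 6 plateau arrays stayed within 12.06 to 12.56. The other large rises were Sfrp2, Ms4a7, P4ha3, Postn, Myh3, Ms4a6d, Clec4n, Lox, Tnc, Nt5dc2 and Mymk, with differences from 4.63 down to 3.90. They include a Wnt inhibitor (Sfrp2), macrophage membrane proteins (Ms4a7, Ms4a6d and the lectin Clec4n), matrix proteins (Postn, Tnc), embryonic myosin (Myh3) and the fusion protein myomaker (Mymk).

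The largest shared falls were led by Odf3l2, Gdap1, Ostn and Scn4b. Odf3l2 read 10.68 and 10.74 on day 0 and between 6.68 and 7.01 in the plateau, a 14.3-fold fall (-3.84 ± 0.09, adjusted p = 1.8e-11). Gdap1, which sits in the outer membrane of mitochondria and acts in their fission, fell 13.9-fold, from 10.27 and 10.35 to a median of 6.42. Ostn, the secreted muscle peptide musclin, fell 13.4-fold from 11.50 and 11.31 to a median of 7.75. Its lowest array, 6.94, was the right array of day 5, and the other plateau arrays lay at 7.63 or above. Scn4b, a beta subunit of voltage-gated sodium channels, fell 11.2-fold from 11.88 and 11.90 to a median of 8.47. Smco1, Plcd4, Inmt, Timp4, Mylk4, Slc15a5, Adhfe1 and Car14 followed, with differences from -3.38 to -2.98. Mylk4, a myosin light chain kinase of striated muscle, was among the brightest genes on day 0 at 13.38 and 13.49 and had a plateau median of 10.24. That the day 0 and plateau arrays of these 12 genes lie apart follows from the rule for shared changes.

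**Figure D1:**
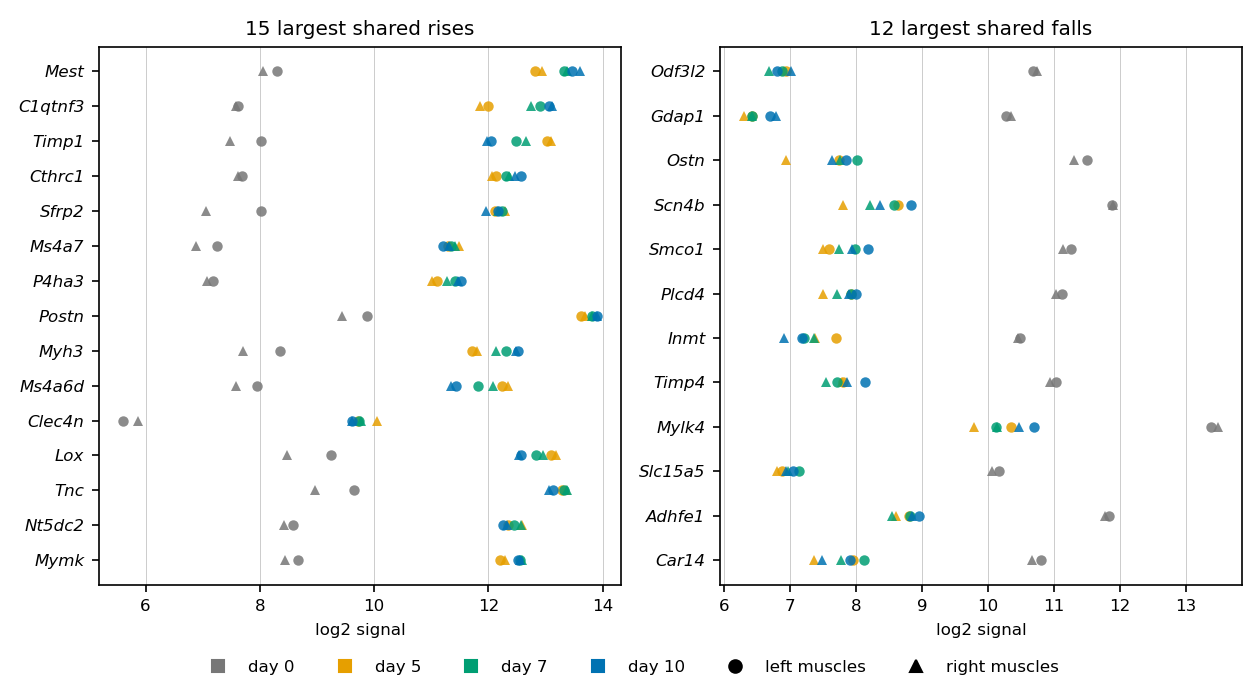
Log2 signal of the 15 largest shared rises and the 12 largest shared falls on each of the 8 arrays; grey symbols are day 0, coloured symbols days 5, 7 and 10, circles left and triangles right muscles. By the rule for shared changes the 6 plateau arrays of each gene lie apart from the 2 day 0 arrays, for example Mest at 12.82 or above against 8.30 or below.

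Many genes of adult muscle have a relative, or a second gene of the same function, used in embryonic or slow muscle or in other cells. In many such pairs the 2 forms moved apart. The other form is one of slow muscle in some pairs, such as Tnni1 and Atp2a2, so the counts mix several kinds of pair. Of 33 such pairs with both genes measured, the form listed for adult muscle was a shared fall in 33, and the other form was a shared rise in 24 and a shared fall in 5. The pairs, like the gene lists, were chosen with earlier results of these data known, so these counts are a description. The pairs in which one fell and the other rose numbered 24 as deposited and 24, 23 and 26 under the 3 other array levels named above. Pgam2, the phosphoglycerate mutase of muscle, read 12.69 and 12.92 on day 0 and 10.73 to 11.81 in the plateau (-1.43 ± 0.14, adjusted p = 2.3e-06). Pgam1, the form of most other tissues, went from 10.21 and 9.90 to between 11.44 and 12.25 (1.80 ± 0.09, adjusted p = 5.3e-09). Both were shared changes, so by that rule their plateau and day 0 arrays did not overlap.

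The same opposed pattern was present in several other functions. In the respiratory chain, the muscle subunit Cox6a2 fell by 0.90 while Cox6a1 rose by 1.40. The mitochondrial ADP/ATP carrier Slc25a4 of heart and muscle fell by 0.96, and the carrier Slc25a5 of growing cells rose by 1.43. The translation factor Eef1a2 of adult muscle and neurons fell by 0.98, and its widespread relative Eef1a1 rose by 1.31, with all 6 plateau arrays between 13.99 and 14.07. The alpha-actinin of fast fibres, Actn3, fell by 0.75 and the non-muscle Actn1 rose by 2.39. The fatty acid carrier Fabp3 fell by 1.16 and Fabp5 rose by 2.89. The metalloprotease inhibitor Timp4 fell by 3.18 beside the rise of Timp1 given above. Exceptions were as clear: in Gpd1 and Gpd2, Acss1 and Acss2, Smyd1 and Smyd2, Mybpc2 and Mybpc1, and Cox7a1 and Cox7a2 both forms fell. Ckmt1, Mylk, Ppp1r3b and Aldoc were not shared rises or falls, with differences of -0.08, -0.08, 0.16 and 0.24. Of the markers of macrophages 20 of 21, and of those of fibroblasts 9 of 14, were shared rises in the same arrays (below). These cells use many of the widespread forms. Their part in these rises was not tested.

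**Figure D2:**
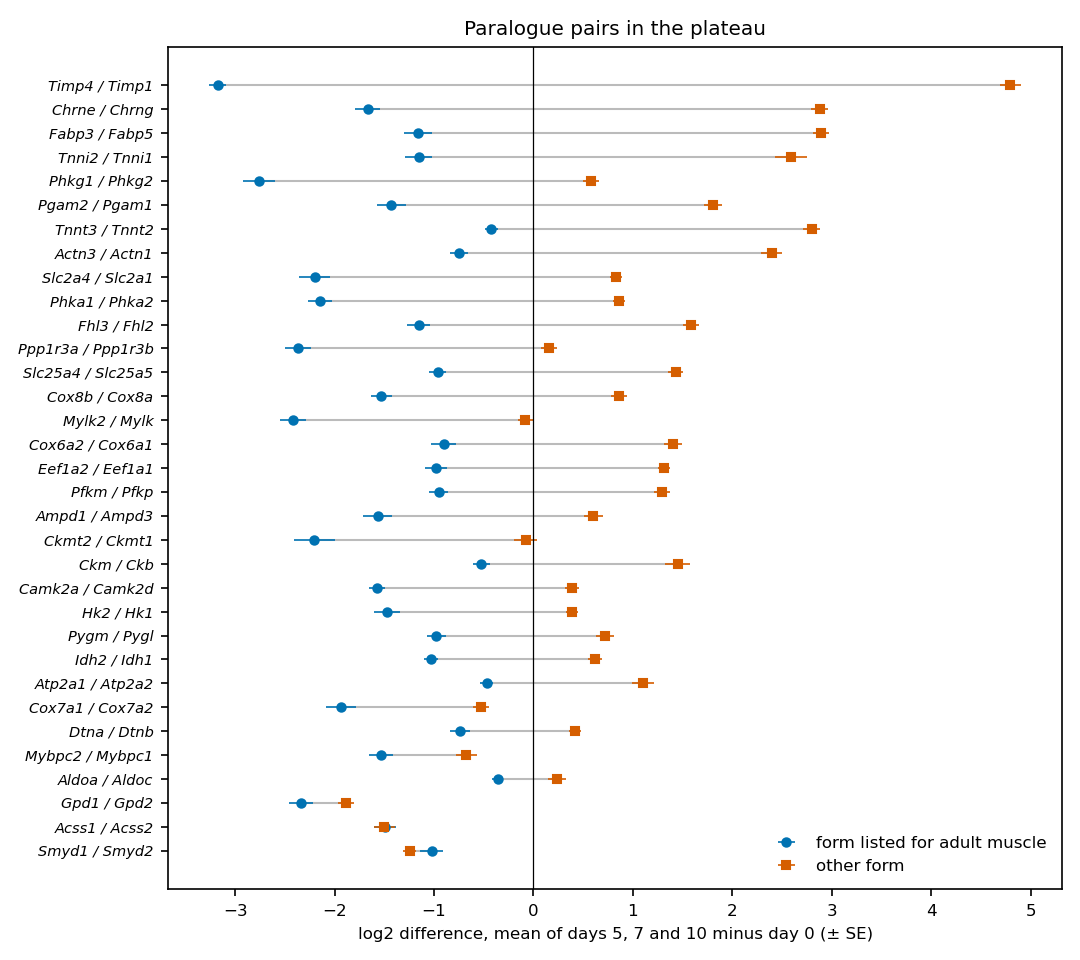
Log2 difference from day 0, with SE, of the form listed for adult muscle (blue circles) and of the other form (orange squares) in 33 pairs, ordered by the gap between them. All 33 blue points lie below 0 and 24 orange points are shared rises. The pairs were chosen with earlier results of these data known.

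The start regions of Pgam2 and Pgam1 are printed here as an example of a pair in which the muscle form fell and the other form rose. They are RefSeq windows of the mouse build GRCm38.p6, 250 bases before to 50 after the annotated gene start, read 5′ to 3′ on the gene's strand. Pgam2 lies at chr11:5803747-5804046 on the minus strand and Pgam1 at chr19:41911621-41911920 on the plus strand. Capitals mark matches, on either strand, to the E-box CAGCTG bound by myogenic factors and to the MEF2 pattern CTANNNNTA.
Pgam2: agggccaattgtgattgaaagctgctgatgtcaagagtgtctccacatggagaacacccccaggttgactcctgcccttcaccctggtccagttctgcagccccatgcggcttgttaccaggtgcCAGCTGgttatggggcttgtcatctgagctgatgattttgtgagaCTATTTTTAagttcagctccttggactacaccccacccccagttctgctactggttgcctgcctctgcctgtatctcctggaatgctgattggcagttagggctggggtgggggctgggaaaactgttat
Pgam1: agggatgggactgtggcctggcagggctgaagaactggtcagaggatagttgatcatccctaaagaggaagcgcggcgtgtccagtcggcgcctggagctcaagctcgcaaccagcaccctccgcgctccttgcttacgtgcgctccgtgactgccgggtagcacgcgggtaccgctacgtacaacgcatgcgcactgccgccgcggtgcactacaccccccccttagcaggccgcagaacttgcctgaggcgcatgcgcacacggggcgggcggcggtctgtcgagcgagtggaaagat
The Pgam2 window holds 1 E-box and 1 MEF2 match, and the Pgam1 window holds neither. Only 23 of the 33 muscle forms and 30 of the 33 other forms have a window, some more than 1, so the 2 sets do not cover the same pairs. The E-box was in 12 of 28 windows of the muscle forms (42.9%) and in 6 of 43 windows of the other forms (14.0%). It was in 16.3% of all windows in the table and 16.3% of those of the genes tested. MEF2 matches were in 17.9% and 16.3% of those windows, beside 18.0% for the genes tested and 21.0% of all. Among shared changes of at least 2-fold the E-box share was 17.9% for rises and 18.7% for falls. A match describes the letters of a window and says nothing of whether a factor binds there.

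Genes of energy metabolism fell together. Shared falls numbered 22 of 22 genes of fatty acid oxidation (median -1.13), 22 of 22 of the citric acid cycle and pyruvate entry (median -1.01) and 46 of 46 of the respiratory chain and ATP synthase (median -0.73). In glycolysis and glycogen metabolism 20 of 21 were shared falls (median -1.08), and the phosphoglucomutase gene Pgm2 was a shared rise at 1.85. On day 5 the right array was lower than the left by a median of -0.30 for glycolysis and glycogen and by -0.15 to -0.16 for the other 3 groups. The deepest falls were in the control of glycogen: Phkg1, the catalytic subunit of muscle phosphorylase kinase, fell by 2.76, from 12.23 and 12.32 on day 0 to between 8.85 and 9.92. Ppp1r3a, which brings a phosphatase to glycogen, fell by 2.37. Ldha, which makes lactate, fell by 0.32, and this too was a shared fall. In the mitochondrion, Cox7a1 read 12.97 and 13.08 on day 0 and 10.23 to 11.57 in the plateau, while Atp5d, a subunit of ATP synthase, differed by -0.17. Sucla2 of the citric acid cycle and Ucp3, an uncoupling protein of muscle mitochondria, differed by -1.69 and -1.76. Of 32 genes of the mitochondrial ribosome, 26 were shared falls (median -0.48).

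Genes of membrane excitation and calcium release fell in the same arrays. Of 25 genes of excitation-contraction coupling and its channels, 20 were shared falls and 4 shared rises (median -0.94), and their right array of day 5 was lower than the left by a median of -0.27. Clcn1, the chloride channel that sets the resting conductance of fibres, went from 11.36 and 11.42 to between 8.65 and 9.42. Kcnj2, an inward rectifier potassium channel, fell by 2.24, and Jph1, which ties the surface tubules to the calcium store, fell by 1.83. The rises were the calsequestrin Casq2 and the calcium pump Atp2a2, both of slow and cardiac muscle, at 1.65 and 1.10, sarcolipin (Sln) at 0.87 and the calcium-release channel partner Fkbp1a at 0.49.

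Contractile genes divided by developmental stage. Of 16 adult fast contractile genes, 14 were shared falls (median -0.79), and of 10 developmental ones 9 were shared rises (median 2.42). Myh3, the embryonic myosin heavy chain, read 8.35 and 7.70 on day 0 and 11.71 to 12.52 in the plateau (4.13 ± 0.13, adjusted p = 1.5e-10). The neonatal myosin Myh8, the cardiac actin Actc1, the embryonic light chain Myl4 and the troponin Tnnt2 rose by 2.34, 2.65, 2.49 and 2.80. The adult fast myosin Myh4 changed by -0.67, and skeletal actin Acta1 was not called at -0.06. The 12 slow contractile genes had no common direction, with 5 shared rises, 3 shared falls and a median of -0.01 whose sign changed with the array level. Without the left day 10 array 5 of them were shared falls. Among them the slow troponins Tnni1 and Tnnc1 rose by 2.59 and 2.23, and the slow light chains Myl2 and Myl3 fell by 1.87 and 2.36. Myh7, the slow myosin, was called lower at -0.99 but overlapped with day 0, where its 2 arrays read 10.03 and 9.40. On day 5 the 16 fast contractile genes were lower on the right than on the left by a median of -0.45, beside -0.15 on day 10, which is part of the spread of these falls.

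Of 15 satellite cell and myoblast markers, 10 were shared rises and 3 shared falls (median 0.56). Myog, the factor that starts differentiation of myoblasts, read 7.29 and 7.15 on day 0 and 9.99 to 10.54 in the plateau (3.07 ± 0.08, adjusted p = 2.7e-11). Mymk went from 8.66 and 8.43 to between 12.20 and 12.59, and the adhesion protein Ncam1 rose by 2.52. Earlier factors of the lineage rose by smaller amounts: Myod1 by 0.80, Myf5 by 0.70 and Pax7, the marker of quiescent and dividing satellite cells, by 0.34. Myf6, the factor of adult fibres, fell by 0.31. Mstn, the secreted brake on muscle size myostatin, read 11.19 and 11.28 on day 0 and 7.92 to 8.70 in the plateau (-2.80 ± 0.12, adjusted p = 1.5e-09). Over the 19 genes of myogenic factors and fusion, 9 were shared rises and 7 shared falls, and the sign of their median (0.004) changed with the array level. Proteins of stretch sensing and the costamere, where the sarcomere meets the membrane, were 10 shared rises and 5 shared falls of 20. The numbers were 7 and 7 with equal array medians, and 7 and 5 without the left day 0 array. Ankrd1, a stretch-induced ankyrin repeat protein of the sarcomere, rose by 1.97, and Smpx fell by 0.78.

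Among genes of the neuromuscular junction, the transcript of the fetal acetylcholine receptor subunit rose and that of the adult subunit fell. Whole-muscle RNA does not tell whether these transcripts lay at the junction or elsewhere. Chrng, the gamma subunit of fetal muscle, read 7.75 and 7.82 on day 0, then 10.55 and 10.58 on day 5, 10.74 and 10.69 on day 7, and 10.72 and 10.70 on day 10 (2.88 ± 0.08, adjusted p = 8.6e-11). Chrne, the epsilon subunit that replaces it after birth, read 10.80 and 10.72 on day 0 and 8.30 to 9.53 in the plateau (-1.66 ± 0.13, adjusted p = 1.5e-07). Chrng was flat across the plateau, whereas Chrne was lowest on day 5 and rose by 0.89 from day 5 to day 10. The subunits shared by both receptors, Chrna1 and Chrnd, rose by 1.76 and 1.92, while Chrnb1 was called higher at 0.18 (adjusted p = 0.044) but overlapped with day 0, with its 2 arrays of day 5 at 10.64 and 10.49 and those of day 0 at 10.58 and 10.62. Of the clustering machinery, the kinase Musk fell by 0.53 and Rapsn by 0.40, and Ache, which breaks down the transmitter, fell by 0.79. The list of 17 junction genes held 8 shared rises and 6 shared falls. The 2 start regions are given for comparison, with the same 300-base windows, build and capitals as above: Chrng at chr1:87205561-87205860 on the plus strand and Chrne at chr11:70619145-70619444 on the minus strand.
Chrng: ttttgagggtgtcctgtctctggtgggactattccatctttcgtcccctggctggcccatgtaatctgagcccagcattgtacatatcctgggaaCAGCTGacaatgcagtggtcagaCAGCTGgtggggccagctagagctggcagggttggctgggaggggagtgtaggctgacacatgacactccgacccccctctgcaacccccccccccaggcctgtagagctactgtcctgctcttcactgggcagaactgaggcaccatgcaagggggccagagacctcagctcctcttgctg
Chrne: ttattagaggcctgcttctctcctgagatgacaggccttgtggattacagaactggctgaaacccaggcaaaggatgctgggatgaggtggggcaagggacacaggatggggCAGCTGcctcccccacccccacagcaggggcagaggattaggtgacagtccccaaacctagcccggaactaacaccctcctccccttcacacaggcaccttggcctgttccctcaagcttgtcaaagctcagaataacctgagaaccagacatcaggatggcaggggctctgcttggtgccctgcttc
The gene that rose has 2 E-boxes in its window and the gene that fell has 1.

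Matrix genes rose from collagen chains to crosslinking enzymes. Of 20 collagen chains 18 were shared rises (median 1.81), and of 19 genes of collagen secretion and crosslinking 18 were (median 1.74). Col1a1 and Col3a1, the main fibril-forming chains, rose by 3.08 and 3.04, and Col12a1, a fibril-associated chain, rose by 3.64. Col1a1 read 10.56 and 10.39 on day 0 and 13.42 to 13.80 in the plateau. Among the enzymes, the prolyl hydroxylase subunit P4ha3 rose by 4.17, the lysyl hydroxylase Plod2 by 3.45, and the crosslinking oxidase Lox went from 9.25 and 8.47 to between 12.54 and 13.18. The median of 24 matricellular proteins was 2.17, with 21 shared rises, and of 22 matrix proteases and inhibitors 17 were shared rises. Adam12 and Mmp14, membrane-bound proteases, rose by 3.17 and 2.91. Not every matrix gene moved: Dcn, an abundant small proteoglycan, differed by -0.01 with plateau arrays between 13.43 and 13.66, and elastin (Eln) was not called at 0.28. Col22a1, a collagen of the muscle-tendon junction, fell by 0.46. Of 14 fibroblast markers, which include Col1a1 and Col3a1, 9 were shared rises and 2 shared falls (median 1.01). Their summed log2 signal was 14.81 to 14.88 on day 0 and 15.66 to 15.92 in the plateau. The tendon markers stood at 13.46 to 13.96 and 14.58 to 15.16. The part of more such cells in the matrix rises was not tested.

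Macrophage genes were above day 0 on all 3 days but declined within the plateau. The median of their markers was 2.78 on day 5, 2.505 on day 7 and 2.25 on day 10. Of the 21 markers, 7 were called lower on day 10 than on day 5 and 0 higher. Of 21 macrophage and monocyte markers 20 were shared rises (median 2.45), and their summed log2 signal was 13.47 to 13.94 on day 0 and 15.94 to 16.30 in the plateau. Ctss, a lysosomal protease of antigen-presenting cells, rose by 3.39, Cd68 by 3.29 and C1qa, a complement chain made by macrophages, by 2.56. The scavenger receptor Cd163 was the exception at 0.05, with day means 0.66 above day 0 on day 5 and 0.54 below it on day 10. Of 21 lysosomal genes 20 were shared rises (median 1.37), and of 18 genes of MHC class II and complement 18 were (median 1.77). The latter were lower on the right than on the left day 0 array by a median of -0.295. The chemokines Ccl8, Ccl3 and Ccl2, which draw monocytes, rose by 3.78, 3.77 and 3.52, and Ccl11, which draws eosinophils, fell by 1.32. Of the 32 cytokines and chemokines listed, 17 were called lower on day 10 than on day 5 and 0 higher. Neutrophil markers were split: 4 of 13 were shared rises and 6 shared falls. The granule gene Ngp read 12.10 and 11.66 on day 0 and ran from 8.19 to 11.10 in the plateau, and S100a8 overlapped with day 0. With the left day 0 array left out the macrophage list kept 20 shared rises and had a median of 2.66, and with the right one left out 20 and 2.31. Among lymphocyte markers, 6 of 14 of T and NK cells were shared rises (median 0.29), among them Cd4 at 1.01. Of 8 B cell markers 1 was a shared rise and 3 were shared falls (median -0.26), but without the left day 0 array 3 were shared rises and 2 shared falls, and the shared falls numbered 6 without the right day 0 array and 5 without the right day 5 array. Of 18 interferon-stimulated genes 17 were shared rises (median 0.91), led by the antiviral GTPase Mx1 at 1.71. Their median was 1.19 on day 5 and 0.665 on day 10, and 10 of the 18 were called lower on day 10 than on day 5.

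**Figure D3:**
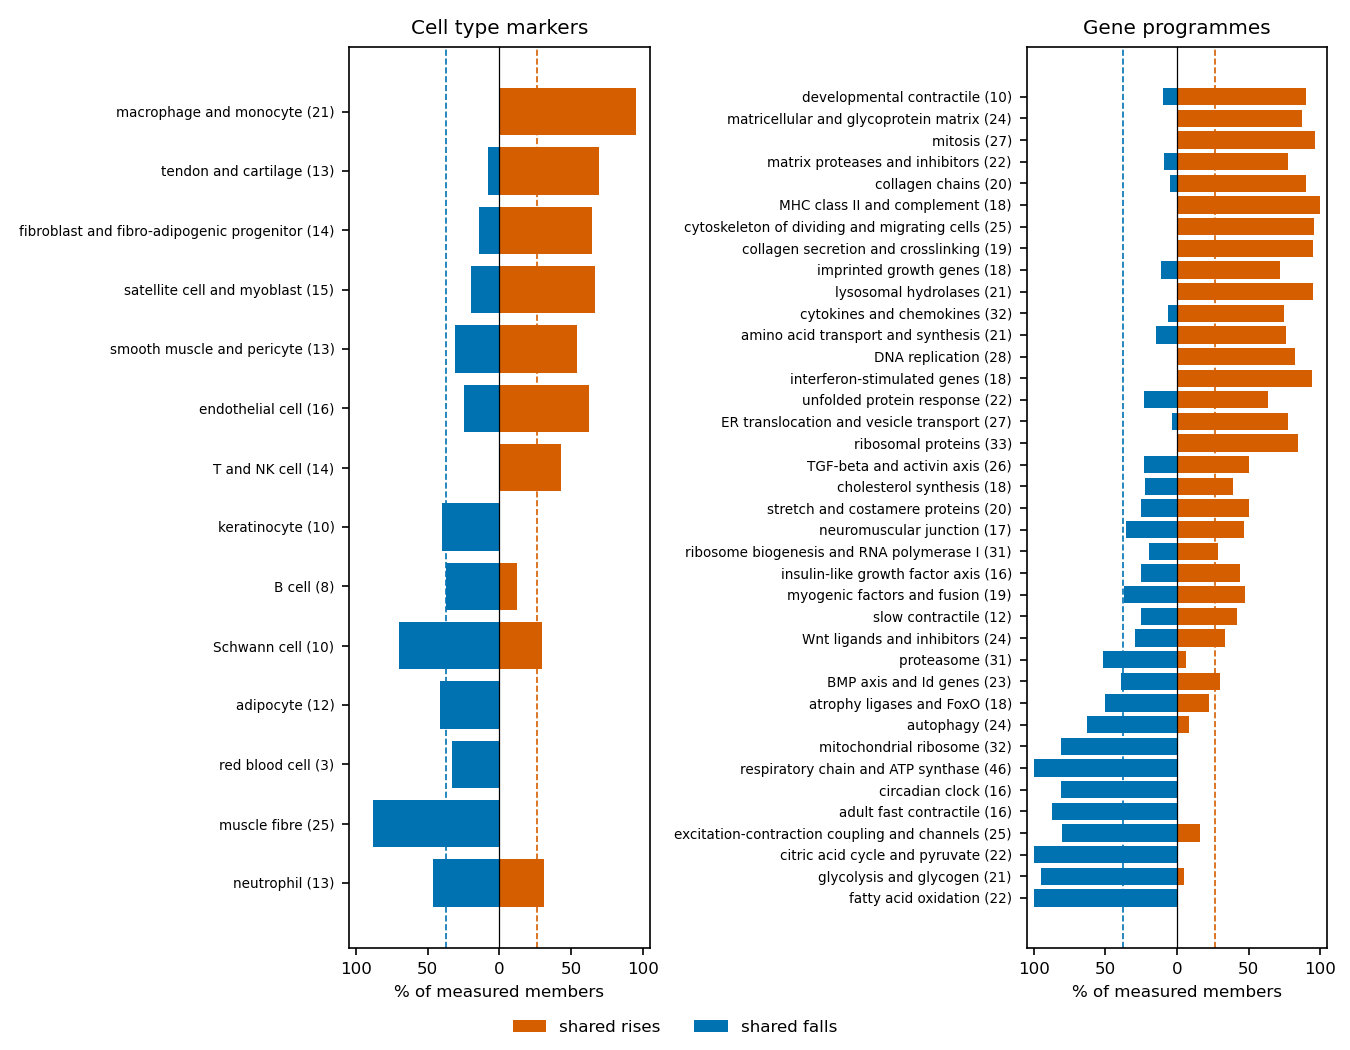
Percent of the measured members of each list (number in brackets) that were shared rises (orange, to the right) or shared falls (blue, to the left), ordered by the list's median difference; dashed lines mark all genes, 26.4% and 37.5%. All 46 respiratory chain genes lie on the falling side and 20 of 21 macrophage markers on the rising side.

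Of 27 genes of entry into the endoplasmic reticulum (ER) and vesicle transport 21 were shared rises (median 0.57). Kdelr3, which returns ER residents, read 8.60 and 8.45 on day 0 and 11.85 to 12.08 in the plateau. Sec24d, of the coat that exports procollagen, and Sec61a1, of the translocation channel, rose by 2.42 and 2.02. The ER foldases and chaperones rose too, among them Pdia3 at 1.66, Edem1 at 1.80 and Hspa5 at 0.54, but the transcription factors of the stress branch fell: Atf4 by 0.49, Ddit3 by 0.41 and their target Chac1 by 1.63. Over the 22 genes of the unfolded protein response there were 14 shared rises and 5 shared falls. Of 33 cytoplasmic ribosomal proteins 28 were shared rises, at a median of 0.51, in contrast to the mitochondrial ribosome above. Many ribosomal protein genes have near-identical processed copies, which the probes may read as well. The 31 proteasome genes had a median of -0.16, close to that of all genes, with 16 shared falls and 2 shared rises, and 10 shared falls without the right day 0 array. Amino acid carriers and synthesis enzymes were shared rises in 16 of 21 (median 1.01).

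Among growth factors, both insulin-like ligands rose. Igf1 read 9.94 and 9.78 on day 0 and 11.33 to 12.02 in the plateau (1.79 ± 0.07, adjusted p = 8.3e-10), and Igf2, the fetal growth factor, rose by 2.92. The insulin receptor Insr and the adaptor Irs2 fell by 1.04 and 0.85, and Igf1r rose by 0.45. In the TGF-beta and activin group, Tgfb1 rose by 1.75, the activin chain Inhba rose by 2.20 on day 5 and by 0.82 on day 10, the activin trap Fst rose by 0.58, and the receptor Acvr2b, which myostatin uses, fell by 0.83. Wnt inhibitors led their list: Sfrp2 rose by 4.63 and Sfrp1 by 3.12, while Sfrp5 fell by 1.23. The medians of the insulin-like growth factor list (0.11), the Wnt list (-0.02) and ribosome biogenesis (0.12) changed sign with the array level, so no direction is given for them.

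Genes of muscle atrophy were mixed, and several ubiquitin ligases among them fell. Over 18 genes of atrophy ligases and FoxO signalling, 9 were shared falls and 4 shared rises, and their median of -0.20 was near that of all genes. Fbxo32 (atrogin-1) read 12.24 and 12.37 on day 0 and 10.23 to 11.14 in the plateau (-1.69 ± 0.11, adjusted p = 3.4e-08). Trim63 (MuRF1) fell by 1.38, and the ubiquitin ligase genes Fbxo31 and Asb4 fell by 2.03 and 2.47. Of 24 autophagy genes 15 were shared falls and 2 shared rises (median -0.33), the deepest falls being Pink1, which marks damaged mitochondria, at -1.71 and Bnip3 at -1.43. The circadian clock was lower: 13 of 16 genes were shared falls and none a shared rise (median -0.79). Among these, the repressor Nr1d1, the activator Arntl and the output factor Hlf fell by 0.97, 0.86 and 1.31. Transcripts of clock genes normally vary with the time of day. The labels do not state the hour at which the pools were taken, and its part in these falls was not tested.

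Genes of cell division were above day 0 on all 3 days and lower on day 10 than on day 5. Of 27 mitosis genes 26 were shared rises (median 2.09), and of 28 DNA replication genes 23 were (median 0.92). The mitosis median was 2.39 on day 5, 2.37 on day 7 and 1.53 on day 10, and 19 of the 27 genes were called lower on day 10 than on day 5. For DNA replication the medians were 1.10, 1.06 and 0.59, and 23 of the 28 were called lower. Ccna2, the cyclin of S phase and mitotic entry, read 8.86 and 7.77 on day 0 and 10.48 to 11.44 in the plateau (2.72 ± 0.23). The day 0 arrays stood more than 1 log2 unit apart for Ccna2, Bub1, Rrm2 and Mki67, with the left array higher in each. Without the left day 0 array the mitosis median was 2.43, and without the right one it was 1.76, with 26 shared rises either way. The cytoskeleton of dividing and migrating cells was a shared rise in 24 of 25, led by the tubulin Tubb2b at 3.26 and thymosin Tmsb10 at 3.17.

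Within the plateau most genes were not called as different among days 5, 7 and 10. With 2 arrays per day this does not show that they held their level. The F test among the 3 days called 1667 genes (8.36%), and 986 of the 5256 shared rises (18.8%) and 278 of the 7480 shared falls (3.72%) were among them. The share was higher for shared changes of at least 2-fold, with 578 of 1682 rises (34.4%) and 104 of 850 falls (12.2%). Day means stayed within 0.2 of each other in 48.9% of shared rises and 73.8% of shared falls. Neighbouring days differed in few genes: day 7 had 80 genes above day 5 (0.401%) and 125 below it (0.627%), and day 10 had 186 above day 7 (0.933%) and 200 below it (1%). By day 10, 1192 had climbed above their day 5 level (5.98%) and 1195 had dropped under it (5.99%). Among the flattest large rises were Sfrp2, Ms4a7, Kdelr3, Tubb2b, Tmsb10 and Sfrp1, and Kdelr3 lay 3.42, 3.47 and 3.37 above day 0 on the 3 days. Among the flattest falls were Odf3l2, Neto2, Amy1, Nt5c1a, Asb11 and Padi2. Nt5c1a, a muscle 5′-nucleotidase, lay 2.80, 2.74 and 2.79 below day 0 on the 3 days. The number of genes that moved depends on the end days: without day 5 the test called 255, and without day 10 it called 148. Without single arrays it called 1033 (day 5 left), 612 (day 5 right), 647 (day 10 left) and 591 (day 10 right).

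Some shared rises still moved within the plateau: 770 of the 5256 were called lower on day 10 than on day 5 (14.6%) and 522 higher (9.93%). Arg1, the arginase of macrophages in repair, fell steeply within the plateau: 11.14 and 11.26 on day 5, 9.57 and 10.05 on day 7 and 8.43 and 8.25 on day 10. Even its lowest plateau array lay above day 0, at 6.93 and 6.64, so it counted as a shared rise while it differed by -2.86 between days 10 and 5 (adjusted p = 1.6e-06). Tnmd, a membrane protein of tendon cells, went the other way, from 10.24 and 10.32 on day 5 to 12.27 and 12.55 on day 10. Nrk, Prss35, Ptn and Dlk1 also rose from day 5 to day 10, by 2.46, 2.22, 2.05 and 2.05. Ptn is a secreted growth factor and Dlk1 an imprinted Notch-like regulator of progenitor cells.

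Among the shared falls that still moved, most were on the way back. Atp1b2, a subunit of the sodium pump, Ky, a sarcomere-associated protein needed for muscle growth, and Trim7 were higher on day 10 than on day 5 by 1.14, 1.13 and 1.07. Ky read 11.08 and 11.07 on day 0, fell to a lowest value of 8.23 and reached 9.62. Cox7a1 and Map3k7cl were higher on day 10 by 0.99 and 0.94. Car4, a carbonic anhydrase of capillaries and fibre membranes, was the exception and lay 1.30 lower on day 10 than on day 5. Of all shared falls, 363 stood above their day 5 level by day 10 and 111 below it. A further 28 genes (0.14%) were called on opposite sides of day 0 on days 5 and 10. Of the 4 named, Cxcl13 and Clu were above day 0 on day 5 and below it on day 10, and Egfl6 and Gpc3 the reverse.

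**Figure D4:**
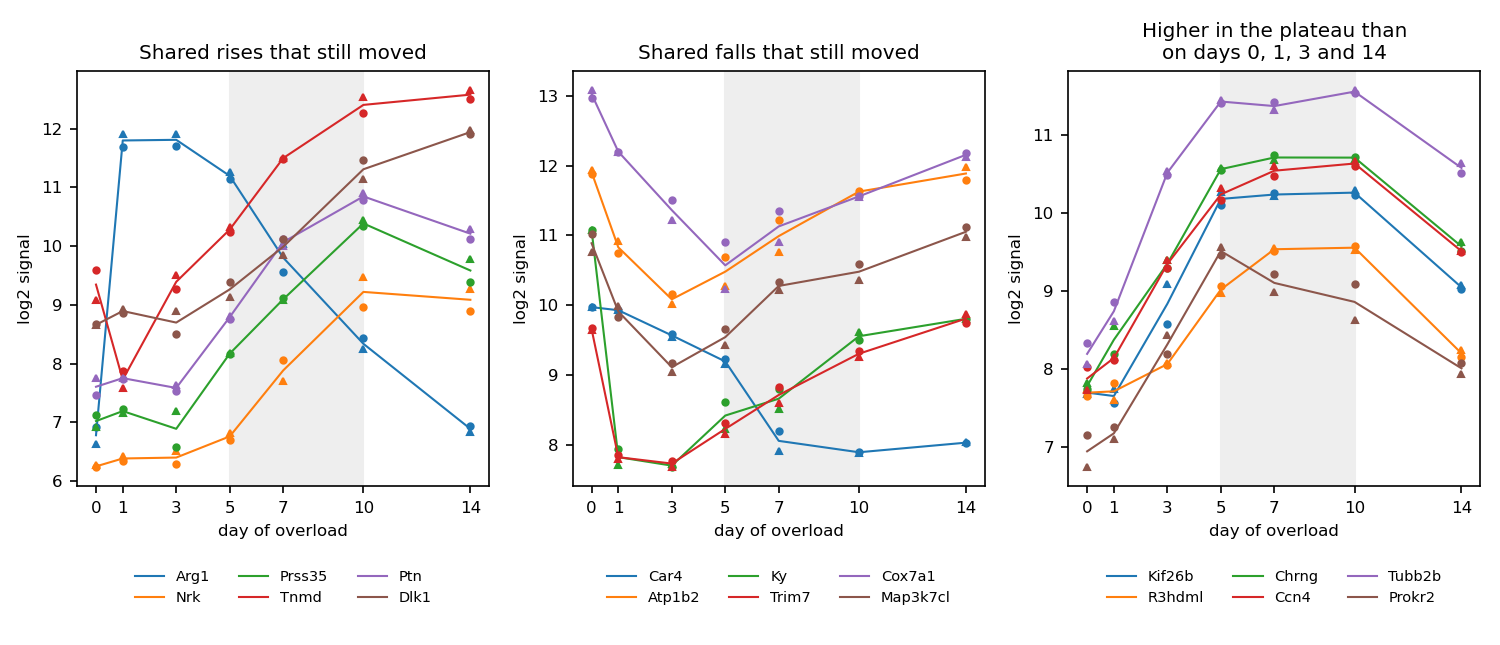
Log2 signal over the 7 days, lines for day means and symbols for the left (circles) and right (triangles) arrays, with days 5 to 10 shaded. Left and middle, shared rises and falls with the largest differences between days 5 and 10, such as the fall of Arg1 from 11.14 and 11.26 to 8.43 and 8.25; right, genes higher in the plateau than on every other sampled day, such as Chrng at 10.55 to 10.74.

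The plateau was also set against the other sampled days. These comparisons share the plateau arrays, so they are given side by side. Against day 1, 5301 genes were higher (26.6%) and 8974 lower (45%), against day 3, 2424 (12.2%) and 2115 (10.6%), and against day 14, 2689 (13.5%) and 2363 (11.9%). Of the 1682 shared 2-fold rises, 1322 were higher in the plateau than on day 1 and 187 lower, 622 were higher than on day 3 and 282 lower, and 1065 were higher than on day 14 and 109 lower. Of the 850 shared 2-fold falls, 620 were called higher on day 14 than in the plateau, and 3 lower. Both sets were picked for plateau values far from day 0, and the same plateau arrays enter here. Part of any lean back toward day 0 therefore follows from that choice. The plateau was higher than each of days 0, 1, 3 and 14 for 334 genes (1.68%) and lower than each for 124 (0.622%).

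Among the genes higher than on every other sampled day, Kif26b, an atypical kinesin, was flat at 10.10 to 10.29 from 7.71 and 7.69 on day 0, and lay 1.18 above day 14. R3hdml, Chrng, Ccn4, Tubb2b and Prokr2 were above day 14 by 1.17, 1.09, 0.96, 0.87 and 1.15. Ccn4 is a matricellular protein induced by Wnt signals and Prokr2 a receptor for prokineticin. Among the lowest, Myl3, the slow ventricular light chain, lay 1.44 below day 14 and 2.36 below day 0. Asb11, Klhl38, Zbtb16, Plin4 and Clic5 lay 0.93, 0.84, 0.80, 0.69 and 0.87 below day 14. Plin4 coats lipid droplets and Zbtb16 is a zinc finger regulator of transcription. Leaving out 1 array of day 3 or of day 14 lowered the counts against that day by more than 1.5 times. Against day 3 the plateau was then higher for 1454 genes and lower for 1141 without the left array, and for 1537 and 917 without the right. Against day 14 it was higher for 1559 and lower for 1320 without the left array, and for 1657 and 1502 without the right.

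Imprinted genes, of which only the maternal or the paternal copy is active, had their own list. Of 18 imprinted growth genes 13 were shared rises and 2 shared falls (median 1.56). Besides Mest and Igf2, the zinc finger genes Plagl1 and Peg3 rose by 3.70 and 2.88, and the noncoding RNA Meg3 by 2.91. Meg3 read 8.68 and 8.57 on day 0 and went on rising within the plateau, by 1.29 from day 5 to day 10. Rian, a noncoding RNA of the same imprinted region between Dlk1 and Dio3, rose by 1.93. Rtl1 was not called at -0.02, and Dio3, which inactivates thyroid hormone, was called higher at 0.54 but was back near day 0 on day 10 (0.04).

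The same region holds a long row of microRNA genes, a set chosen here after its values were seen. MicroRNAs are short RNAs that bind target transcripts through bases 2 to 8, the seed. The probes of this array read any transcript that runs through the hairpin and do not measure the mature microRNA. The mature sequences of the largest rises, with Mir206, are given because they show which seeds the locus encodes. They are from RefSeq on GRCm38.p6, with the seed in capitals.
mmu-miR-382-5p: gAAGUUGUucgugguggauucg
mmu-miR-377-3p: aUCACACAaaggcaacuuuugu
mmu-miR-380-3p: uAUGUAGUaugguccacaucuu
mmu-miR-379-3p: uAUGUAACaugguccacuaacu
mmu-miR-379-5p: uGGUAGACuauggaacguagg
mmu-miR-323-3p: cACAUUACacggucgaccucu
mmu-miR-206-3p: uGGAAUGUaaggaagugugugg
Within the locus the seed AUGUAAC was shared by Mir379 and Mir411, and the seed UGGAUAU by Mir376b and Mir376c. The other locus sequences listed here have a seed found in no other measured microRNA gene of the locus. Seeds outside the locus, that of Mir206 included, were not compared.

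Of 297 microRNA genes measured, 40 lie between Dlk1 and Dio3. Of these 29 were shared rises and 1 a shared fall, with a median of 0.88, whereas of the other 257 there were 32 shared rises and 59 shared falls, with a median of -0.11. The medians of the 40 genes against day 0 were 0.08 on day 1, 0.04 on day 3, 0.43 on day 5, 0.75 on day 7, 1.55 on day 10 and 1.80 on day 14. On day 10, 36 of the 40 were called higher than on day 5. Mir382 read 4.67 and 5.48 on day 0 and 7.81 to 9.39 in the plateau, and Mir377 read 5.18 and 5.22 and then 7.59 to 9.02. Mir380 and Mir379 differed from day 0 by 2.56 and 2.55. The genes lie in 1 stretch and may be read from shared transcripts, so they are not independent. Mir206 on chromosome 1, the microRNA gene of regenerating muscle and the junction, rose by 1.88, from 5.72 and 5.79 to between 7.14 and 8.02. As the set was chosen with its values in view, these counts are a description.

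**Figure D5:**
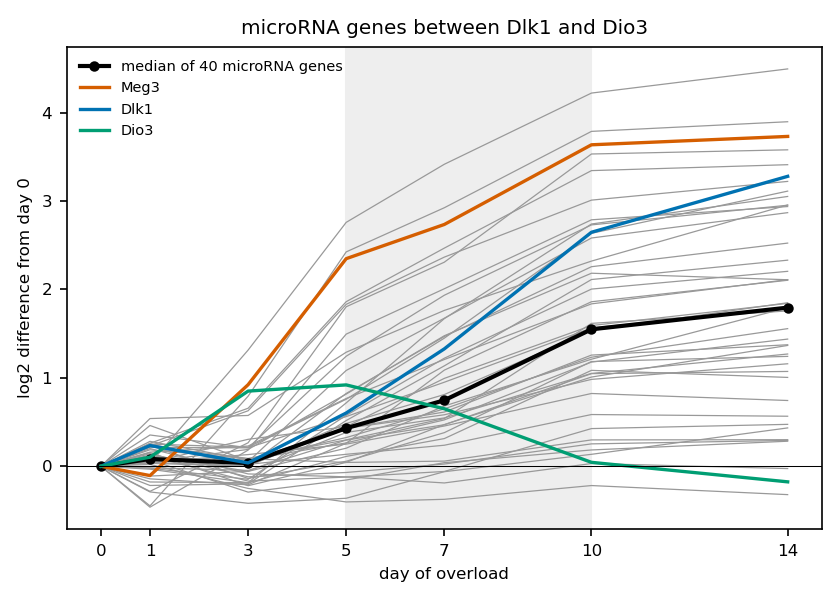
Log2 difference from day 0 over the 7 days for the 40 microRNA genes between Dlk1 and Dio3 (thin grey lines), their median (black) and the genes Meg3, Dlk1 and Dio3, with days 5 to 10 shaded. The median goes from 0.04 on day 3 to 1.55 on day 10 and 1.80 on day 14, while Dio3 returns to 0.04 on day 10.

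Markers of other cell types in the muscle moved in both directions. Of 13 tendon and cartilage markers 9 were shared rises and 1 a shared fall (median 1.06), and the right day 0 array was lower than the left by a median of -0.37. Of 16 endothelial markers 10 were shared rises and 4 shared falls (median 0.38): the junction proteins Cdh5 and Pecam1 rose by 0.73 and 0.64, and the growth factor receptors Flt1 and Kdr fell by 0.81 and 0.64. Among 13 smooth muscle and pericyte markers 7 were shared rises and 4 shared falls, Acta2 rising by 1.31 and Myh11, the myosin of mature smooth muscle, falling by 1.06. Of 10 Schwann cell markers 7 were shared falls, including myelin basic protein (Mbp) at -0.61, and 3 were shared rises, led by the factor Egr2 at 1.31. The shared falls numbered 5 after quantile normalization and 3 with the median difference set to 0, and the summed log2 signal of the 10 markers was higher in the plateau (12.99 to 13.32) than on day 0 (12.60 to 12.78), so no direction is given for them. Adipocyte markers held no shared rise and 5 shared falls of 12, among them the lipase Pnpla2 at -1.03. That share is near the 37.5% of all genes. The shared falls numbered 3 after quantile normalization, 8 with equal array medians and 3, beside 1 shared rise, with the median difference set to 0. No direction is given for these markers. Of 25 muscle fibre markers 22 were shared falls (median -0.67), with the day 5 difference between sides given above, and their summed log2 signal was 18.43 to 18.45 on day 0 and 17.54 to 18.01 in the plateau. This lower fibre signal went with the falls of metabolism, channels and fast contractile genes, and its part in them was not tested.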

How the data were processed

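Each sample was hybridised to 1 Affymetrix Mouse Gene 1.0 ST array. The table deposited by the authors holds log2 signals of 35557 probe sets, and its normalization and background correction are not stated in the labels; Partek is named in the submitters' processing notes, without a version. RNA input is stated as 100 ng in one label and 250 ng in another. Values ran from 2.35 to 14.79. Depth does not apply to arrays: their number, 2 per day, limits the precision, and the median SE of the plateau difference was 0.079.

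Of 35557 probe sets, 21789 name 1 gene in the platform annotation, 1621 several and 12147 none. Genes with more than 1 probe set (999 of 19938) were represented by the probe set with the highest mean over all arrays; with their mean instead, all 244 named genes kept their direction and call. Tests used limma 3.58.1 in R 4.3.3 with day as group on all 14 arrays, and contrasts of the mean of days 5, 7 and 10 with each other day. Tables and figures used Python 3.11.15. The fit was tested on simulated data for this comparison over 19938 genes. Changes of 0.25, 0.5, 1 and 2 (50 genes each) were called in 8%, 92%, 100% and 100%. All other genes were left unchanged, and 13 of them were called. In the data, by contrast, 28.2% of genes were called higher and 40.8% lower. The simulated noise was independent, whereas the pools may share animals. With so few genes changed, the Benjamini-Hochberg cutoff was also stricter than in the data. These shares may therefore not hold for the data. The members, gene lists and rules were chosen with earlier results of these data known. Named genes are the 15 largest shared rises and 12 largest shared falls, the flattest and the most mobile large changes, those beyond every other day, list extremes and pair members. The microRNA genes were added after their values were seen. Left and right were the only replicate numbers: right minus left differences correlated at 0.354, 0.264 and 0.186 between days 5, 7 and 10, and at -0.084 to 0.005 with day 0. Motifs were searched in RefSeq windows of 250 bases before to 50 after gene starts.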

Additional observations from a re-analysis of the deposited data

Results flagged for a closer look

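Among the 244 named genes, 3 had 1 plateau array far from the other 5 by the ratio of its gap to the range of the 6 arrays: Mstn (0.693), Clec4n (0.653) and Ostn (0.637). In all 3 this was the right array of day 5, low for Mstn (7.92) and Ostn (6.94) and high for Clec4n (10.05). Chance alone flags about 1 in 20 groups, and 1.2% were flagged here.

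The change from day 0 differed between right and left muscles for 80 of 19938 genes (0.401%) in an interaction test over the 8 arrays. The right minus left difference in the change was 1.46 for Bub1, 1.33 for Ccna2, 1.02 for Prc1, 0.95 for Ctsk, 0.83 for Lox and 0.74 for Tnni1. For Bub1 the day 0 arrays read 7.22 (left) and 5.97 (right), and for Ccna2 8.86 and 7.77.

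Changes from day 0 on days 5 and 10 had opposite signs in 4 named genes, and the difference between those days was tested directly. Day 10 minus day 5 was -1.69 for Cxcl13, -1.41 for Clu, 1.53 for Egfl6 and 1.28 for Gpc3, with adjusted p-values from limma of 0.00027, 0.00022, 0.00022 and 5.2e-05.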

How the results depend on the processing

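Over 244 named genes and all alternatives, 5551 results kept direction and side of the threshold, 38 were no longer called, 10 became called and 8 reversed. All 8 reversals were in genes not called as deposited: Ckmt1 under quantile normalization (0.0611) and with the median difference set to 0 (0.044), Mylk with the latter (0.0432), Egfl6 with equal array medians (-0.0414) and without day 10 (-0.33), Cxcl13 without day 10 (0.33) and without the left day 0 array (0.0224), and Clu without day 10 (0.0492). With the spread between the 3 plateau days as error in place of that between pools (residual df 2), 18 named genes were no longer called.

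Counts that moved over 1.5 times were as follows. With the median difference from day 0 set to 0, 5188 genes were lower than on day 0, shared falls were 4818, and 5123 and 1345 were lower than on days 1 and 3. Without the 25% of genes of lowest signal, 5879 were lower than on day 1 among fewer genes tested. Over all probe sets, 8879 were higher than on day 0, shared rises were 8331, 8553 were higher than on day 1 and 969 differed among days 5, 7 and 10. Array weights gave 2704 that differed among those days. At an adjusted p under 0.01 these were 612, with 1558 higher and 996 lower than on day 3 and 1659 and 1360 against day 14. Asking for 2-fold left 1684 higher and 857 lower than on day 0, 1682 shared rises, 850 shared falls, 1131 and 520 against day 1, 196 and 77 against day 3 and 159 and 106 against day 14. Without day 5, 255 differed among the remaining days. Without day 10 this was 148, and 1160 were lower than on day 3. The cause was not tested.

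Leaving out 1 array gave 4982 to 5535 genes higher and 6047 to 8025 lower than on day 0, 4918 to 5286 shared rises, 6022 to 7506 shared falls and 591 to 1858 that differed among the plateau days. Against day 1 it gave 4629 to 5309 higher and 6792 to 9062 lower, against day 3 1454 to 2456 and 917 to 2220, and against day 14 1559 to 2785 and 1320 to 2350. The lowest counts came without the right day 0 array for day 0, the right day 10 array for the plateau days, and an array of the day itself for days 1, 3 and 14. The side as a replicate block gave 5670 higher, 8219 lower, 5280 shared rises and 7498 shared falls, and 1832 that differed among the plateau days, and moved no count over 1.5 times. List counts without single arrays and under other array levels were chosen after seeing the data.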
